A study of Mus musculus with 45 samples.

Results

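The signal recognition particle (SRP) binds the signal peptide of a protein as it leaves the ribosome and carries the ribosome to the membrane of the endoplasmic reticulum (ER). There the particle docks on a receptor of its own and hands the growing chain to the translocon, the channel into the ER. In the oocyte this route serves secreted and membrane proteins, among them the proteins of the zona pellucida. SRP68 and SRP72 bind each other and sit together on the 7S RNA of the particle. SRP54 reads the signal peptide, SRP19 helps SRP54 to assemble, and SRP9 and SRP14 form the end of the particle that pauses translation. SRPR and SRPRB are the 2 subunits of the receptor.

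Srp68 was chosen by its values in fully grown oocytes (FGOs), where the deposited levels were lower in K36M than in control oocytes, and the other genes of the particle and its receptor were added to ask whether they followed it. They made 10 of the 26214 genes listed in the deposited table, namely Srp68, Srp72, Srp54a, Srp54b, Srp54c, Srp19, Srp9, Srp14, Srpr and Srprb. The values of Srp68 in FGOs are therefore given as a description, with no test. The genes of the 7S RNA (Rn7s1, Rn7s2 and Rn7s6) were not analysed here.

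Control FGOs came from H3f3b K36M-flox/+ females, and K36M FGOs from H3f3b K36M-flox/+; Gdf9-Cre females. The Gdf9 promoter is oocyte-specific, and Cre turns on the allele of H3f3b that encodes histone H3.3 with methionine in place of lysine at residue 36. Controls thus also carried the flox allele, but not Cre. The females were of a C57BL/6 / 129 hybrid strain and were 3 to 4 weeks old when FGOs were taken, and every FGO library was a pool of oocytes. Each two-cell library was a single late two-cell embryo, 31 to 32 h after fertilization, from a control or a K36M oocyte and JF-1 sperm. Transcript levels (TPM, transcripts per 1000000) were given for 3 control and 3 K36M FGO libraries and for 8 embryos from oocytes of each genotype. Control embryo 4 was left out, as the deposited table marks it, which left 7 control embryos. Embryos are grouped by the oocyte they came from: the labels do not give which allele of H3f3b each embryo inherited, so the embryos of a group may differ in genotype. No source used here says which libraries shared a female, so the p-values measure the spread between these libraries.

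TPM values carry no read depth, so the depth behind each value is unknown from the table, and the read totals of the libraries were not used here. FGO libraries listed 16707 to 18559 genes above 0 and embryo libraries 10894 to 17329, with the fewest in K36M embryos 2 and 8. All 8 oocyte markers (Gdf9, Bmp15, Zp1, Zp2, Zp3, Nlrp5, Ooep and Mos) were present in every group. Their summed TPM was 15143 to 15285 in control FGOs and 12920 to 14192 in K36M FGOs, and the groups did not overlap. Singly, Bmp15, Zp1, Zp2, Zp3 and Nlrp5 were lower in every K36M library than in any control (8.17% of all genes), Mos was higher in every one (7.46%), and Gdf9 and Ooep overlapped. The part of these markers in the results below was not tested. The 10 granulosa and cumulus markers summed to 51.7 to 69.6 TPM in control and 55.8 to 68.1 TPM in K36M FGOs. In both groups 8 of them had a mean of at least 1 TPM (Amh, Foxl2, Cyp19a1, Fshr, Inha, Kitl, Hsd17b1 and Has2). Ptx3 was at 0 in the controls and Tnfaip6 at 0 in the mutants. The 7 stroma and blood markers summed to at most 5.61 TPM in FGOs, with Hba-a1 at 0 in both groups and Hbb-bs at 0 in the controls. Col1a1 and Dcn in the controls and Col1a2 in the mutants had a mean of at least 1 TPM. The 8 two-cell markers, among them Zscan4d and Tcstv1, summed to 369 to 1872 TPM in control and 270 to 2440 TPM in K36M embryos, and to at most 73.9 TPM in FGOs.

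Srp68 was at 42.4, 44.1 and 50.2 TPM in the 3 control FGO libraries. In the 3 K36M libraries it was at 21.6, 15.1 and 16.8 TPM. Every K36M library lay below every control library, as for 8.17% of the genes tested, and the lowest control value was well above the highest K36M value. The difference on the log2(TPM + 1) scale was -1.32, and 107 of 13775 genes tested, or 0.777%, had a difference as low or lower. Its standard error of 0.17 carries no test, since the gene was chosen on these values. Leaving out single FGO libraries gave differences from -1.46 (without K36M replicate 1) to -1.21 (without K36M replicate 2). TPM measures a share of the RNA in a library, so less Srp68 RNA per oocyte and fewer oocytes that hold it cannot be told apart in these pools. The gene lies on chromosome 11, chr11:116245166-116274217 of GRCm38, on the minus strand, and no annotated gene overlaps it. None of the 2474 windows of 53 bases, the read length, in its longest coding transcript recurred in a transcript of another gene.

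**Figure D1:**
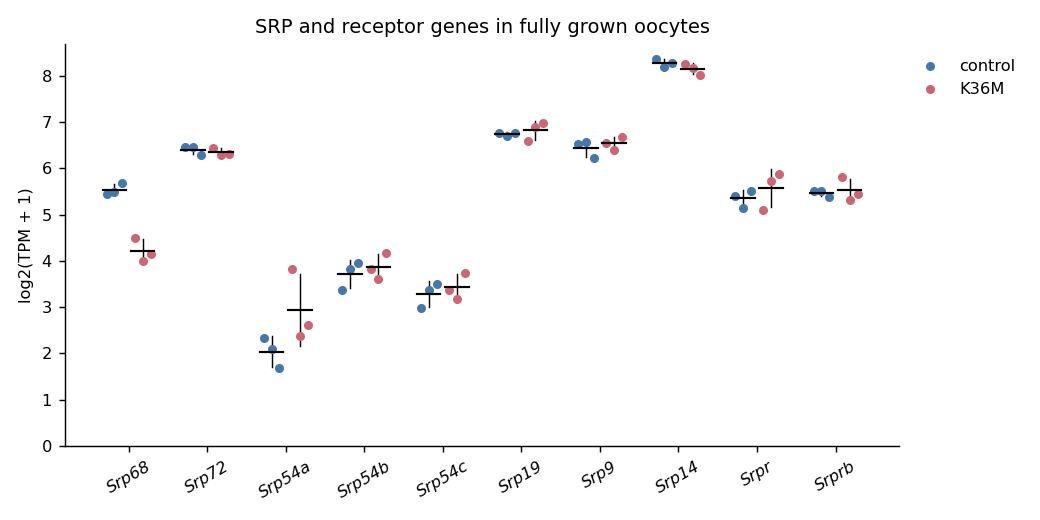
Levels of the SRP and receptor genes in FGOs, as log2(TPM + 1) on the y axis, for 3 control (blue) and 3 K36M (red) libraries per gene; each point is a library, the horizontal bar the mean and the vertical bar 1 SD. Srp68 is the gene whose red points, at 15.1 to 21.6 TPM, all sit far below its blue points, at 42.4 to 50.2 TPM.

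Srp72, the partner of Srp68, did not follow it. Control FGOs had 86.6, 86.4 and 77.3 TPM of Srp72, and K36M FGOs had 86.2, 76.6 and 78.6 TPM. The groups overlapped almost completely. The log2 difference was -0.05, with a 95% interval of -0.29 to 0.18 (adjusted p = 0.88, limma with Benjamini-Hochberg adjustment over 13775 genes). The ratio of Srp68 to Srp72 was 0.489, 0.511 and 0.650 in the controls and 0.251, 0.197 and 0.213 in the K36M libraries, a description that carries the choice of Srp68.

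Of the 9 genes other than Srp68, limma called 0 between K36M and control FGOs, where 0.00726% of all genes tested were called, and 0 of 9 had an unadjusted p under 0.05, against 10.5% of all genes. By sign alone 7 were higher and 2 lower in K36M FGOs. Their median log2 difference was 0.10, beside 0.01 over all genes. The lowest bound of any of the 9 intervals of 95% was -0.43, for Srp54c. Leaving out K36M replicate 1 raised the calls over all genes to 191 higher and 109 lower, but none of the 9 was among them.

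Srp14 and Srp9, the pair at the translation-pausing end, and Srp19 had groups that overlapped, and none passed the test. Srp14, the most abundant member, was at 325, 290 and 307 TPM in control FGOs and at 306, 288 and 259 TPM in K36M FGOs, a log2 difference of -0.12 (standard error 0.09, 95% interval -0.32 to 0.08, adjusted p = 0.65). Srp9, its partner, ranged over 73.4 to 94.0 TPM in the controls and 82.6 to 101 TPM in the mutants (log2 difference 0.10, 95% interval -0.19 to 0.39, adjusted p = 0.80). Srp19 was at 108, 102 and 108 TPM in controls and at 95.5, 118 and 125 TPM in K36M libraries, which lie on both sides of the control range (log2 difference 0.08, 95% interval -0.18 to 0.35, adjusted p = 0.82).

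Both receptor subunits overlapped between genotypes. Srpr, the subunit that binds SRP54, was at 41.2, 34.4 and 44.5 TPM in control FGOs and at 33.4, 52.3 and 57.6 TPM in K36M FGOs, where replicate 1 was the lowest of all 6 libraries and the other two were the highest. Its log2 difference was 0.22, with a 95% interval of -0.25 to 0.69 (adjusted p = 0.72). Srprb, which anchors the receptor in the membrane, ranged over 40.8 to 44.5 TPM in controls and 38.9 to 54.9 TPM in K36M FGOs (log2 difference 0.06, 95% interval -0.28 to 0.40, adjusted p = 0.91). Of the windows of 53 bases, 18.7% of those of Srpr, 27.8% of those of Srprb and 15.3% of those of Srp9 recurred in transcripts of other annotated genes, so these values are less certain than that of Srp68.

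In control FGOs the order of the mean levels, which are scaled to gene length, was Srp14, Srp19, Srp9, Srp72, Srp68, Srprb, Srpr, Srp54b, Srp54c and Srp54a. Neighbours in this order whose ranges overlapped were Srp9 and Srp72, Srp68 and Srprb, Srprb and Srpr, and Srp54b and Srp54c. In K36M FGOs Srp68 was in place 7 instead of place 5, below Srpr and Srprb, and its range of 15.1 to 21.6 TPM overlapped that of Srp54b, at 11.3 to 17.1 TPM.

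The mouse has 3 copies of the Srp54 gene in a row on chromosome 12, and they can hardly be told apart by reads of this length. In the longest coding transcript of each, the coding sequences of Srp54a and Srp54b were identical over 1515 bases, and that of Srp54c differed from them at 6 positions, an identity of 99.6%. Only 11 of the 3594 windows of Srp54b were found in no other gene, against 231 of 3590 for Srp54c and 1114 of 4446 for Srp54a, whose transcript is longer. The stretch of exon 11 that holds 3 of the 6 differences is shown because it is where the copies differ most, with the differing bases in capitals. It was read from the GENCODE M21 transcripts on the plus strand of GRCm38, at chr12:55102487-55102546 for Srp54a, chr12:55177547-55177606 for Srp54b and chr12:55252791-55252850 for Srp54c.
Srp54a: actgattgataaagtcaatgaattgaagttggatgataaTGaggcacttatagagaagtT
Srp54b: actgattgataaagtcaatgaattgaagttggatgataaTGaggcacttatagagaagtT
Srp54c: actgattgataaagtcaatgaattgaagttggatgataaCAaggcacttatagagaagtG
How the authors counted reads that fit several copies is not given in the sources used here, and the values of single copies are uncertain.

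Srp54a was at 4.04, 3.30 and 2.21 TPM in control FGOs and at 13.1, 4.18 and 5.17 TPM in K36M FGOs. All 3 mutant libraries were above all 3 controls, but the lowest mutant library was barely above the highest control. The log2 difference was 0.90, with a standard error of 0.41 (95% interval -0.03 to 1.83, adjusted p = 0.49), and without K36M replicate 1 it was 0.46. Such a separation with K36M above control was found for 7.46% of the genes tested. Srp54b was at 9.39 to 14.6 TPM in controls and 11.3 to 17.1 TPM in mutants, and Srp54c at 6.88 to 10.4 and 8.03 to 12.3 TPM, with adjusted p-values of 0.85 and 0.86. Summed over the 3 copies, control FGOs had 20.3, 25.9 and 27.1 TPM and K36M FGOs 35.7, 23.5 and 34.6 TPM, with overlap.

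Srp54b and Srp54c had closely similar patterns. Over the 21 libraries their log2(TPM + 1) values had a Pearson r of 0.99, and in the 3 control FGO libraries the ratio of Srp54b to Srp54c was 1.36 to 1.41. The ratio was 1.39 to 1.40 in K36M FGOs, but 1.31 to 4.29 (median 1.39) in control embryos and 1.26 to 12.1 (median 1.43) in K36M embryos. This is a description, since the copies share nearly all their sequence. Srp54a had an r of -0.71 with Srp54b over the 15 embryos and of 0.03 over the 6 FGO libraries. It made up 8.14 to 19.9% of the summed TPM in control FGOs but 57.6 to 97.9% in control embryos. Among K36M embryos the share ranged from 0 to 99.3%, with Srp54a listed at 0.153 TPM in embryo 2 and at 0 in embryo 8, the libraries with the fewest genes above 0.

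**Figure D2:**
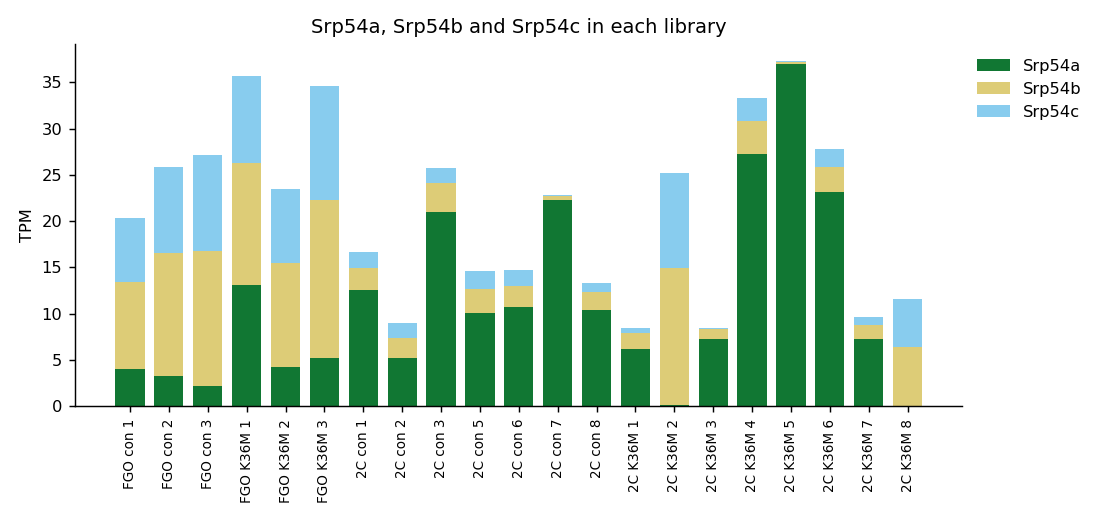
TPM of Srp54a (green), Srp54b (yellow) and Srp54c (blue) stacked for each library, with FGO libraries on the left and two-cell (2C) embryos on the right; con is control, and the bars are single values with no error. Srp54a takes 8.14 to 19.9% of the bar in control FGOs and 57.6 to 97.9% in control embryos, while K36M embryos 2 and 8 have almost none of it.

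In two-cell embryos Srp68 was at 30.1 to 79.4 TPM in the 7 controls, with a median of 44.8 TPM. In the 8 K36M oocyte-derived embryos it was at 8.09 to 123 TPM, with a median of 51.9 TPM. The K36M values enclosed the whole control range, since embryos 8, 4 and 7 (8.09, 14.9 and 24.9 TPM) were below every control and embryos 3 and 1 (123 and 82.0 TPM) were above every control. The means were 51.3 ± 17.9 TPM (SD, n = 7) and 53.4 ± 38.9 TPM (SD, n = 8). The difference in log2(TPM + 1) was -0.29, with a standard error of 0.52 (adjusted p = 0.89, limma). A two-sided exact permutation test of the same difference over all splits of the 15 embryos gave p = 0.59. The 95% interval ran from -1.37 to 0.78, which includes both 0 and the -1.32 of the FGOs, so these embryos do not tell the 2 values apart. In these embryos the median difference over all genes was -0.26, and -0.05 after quantile normalization, which gave -0.08 for Srp68.

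Of the 10 members, limma called 0 between K36M oocyte-derived and control embryos, and 0% of the 17362 genes tested were called. Unadjusted, 1 of 10 had a p under 0.05 and was higher, against 1.2% of all genes in that direction and 6.5% in the other. This was Srp19, at 42.9 to 149 TPM (median 54.7) in the controls and at 50.5 to 482 TPM (median 193) in K36M embryos. The ranges overlapped, with K36M embryos 1, 7 and 8 inside the control range. Its log2 difference was 1.10, with a 95% interval of 0.20 to 1.99 (unadjusted p = 0.018, adjusted p = 0.58), and it was 1.14 (adjusted p = 0.85) without K36M embryos 2 and 8.

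The other members did not separate the embryos. Srp72 was at 71.9 to 168 TPM (median 109) in controls and 73.9 to 268 TPM (median 120) in K36M embryos, with a log2 difference of 0.37 (95% interval -0.34 to 1.09). Srp14 was at 110 to 240 TPM (median 185) in controls and 110 to 531 TPM (median 222) in K36M embryos, with a log2 difference of 0.36 (95% interval -0.31 to 1.02). For each of them the K36M group reached higher than the controls at the top and shared the bottom of the range, and for none of the 10 genes did the groups separate, as they did for 0.115% of the genes tested. Srp9 was at 52.7 to 207 TPM in controls and 27.8 to 196 TPM in K36M embryos (log2 difference 0.11). Srpr was at 52.1 to 192 and 52.6 to 195 TPM (0.21), nearly the same range. Srprb was at 7.11 to 41.4 and 2.93 to 65.1 TPM, with a log2 difference of -0.0016 that turned positive under quantile normalization (0.38). For the Srp54 copies the log2 differences were -0.73, 0.30 and 0.20 for a, b and c, with intervals that all covered 0. The difference of Srp54a was 0.23 without K36M embryos 2 and 8. The adjusted p of these 8 genes was 0.77 to 0.999.

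**Figure D3:**
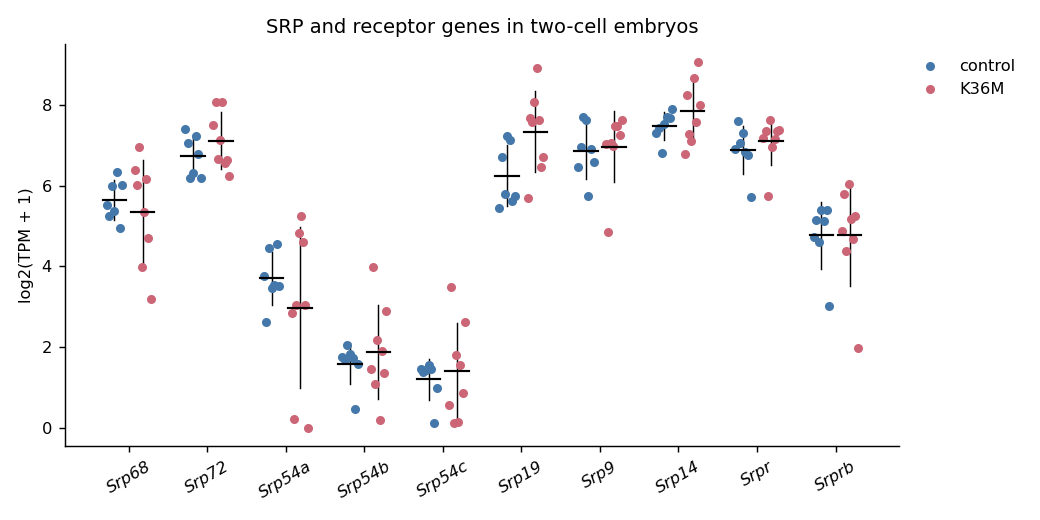
Levels of the same genes in two-cell embryos, as log2(TPM + 1) on the y axis, for 7 control (blue) and 8 K36M oocyte-derived (red) embryos; each point is an embryo, the horizontal bar the mean and the vertical bar 1 SD. The red points of Srp68 spread from 8.09 to 123 TPM around blue points at 30.1 to 79.4 TPM, and no gene has groups that separate.

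The spread between K36M embryos was wider than that between control embryos for 9 of the 10 genes, all but Srpr. The SD of log2(TPM + 1) of Srp68 was 1.29 in K36M and 0.49 in control embryos. Over all genes tested the K36M SD was the larger for 61.8%, so part of this holds for genes in general. K36M embryos 2 and 8, with the fewest genes above 0, held several of the extremes. Embryo 8 was the lowest K36M embryo in Srp68 (8.09 TPM) and Srprb (2.93 TPM), and embryo 2 in Srp9 (27.8 TPM). Other extremes lay elsewhere, such as the highest Srp14 (531 TPM, embryo 7) and Srp19 (482 TPM, embryo 5). The difference in spread was not tested.

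**Figure D4:**
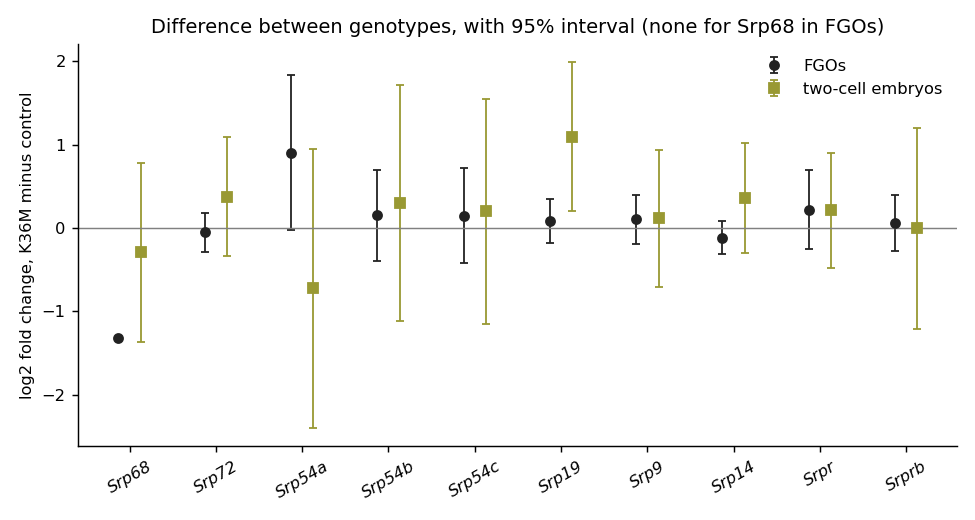
Difference between K36M and control in log2(TPM + 1) on the y axis for each gene, in FGOs (black circles) and in two-cell embryos (olive squares), with 95% intervals as bars. Srp68 in FGOs, at -1.32, is drawn without an interval because it was chosen on these values; in embryos its interval is -1.37 to 0.78, and in FGOs the intervals of the other 9 genes all cover 0.

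Whether the effect of genotype differed between stages was tested by the interaction term of a fit over all 21 libraries. This fit gives each gene a shared estimate of spread for pooled FGOs and single embryos. Yet for every member the SD of log2(TPM + 1) was larger in embryos than in FGOs of the same genotype. The p-values of the interaction and stage terms may therefore be off. Of the 9 genes other than Srp68, 0 were called (0% of 17358 genes), and 0 had an unadjusted p under 0.05, against 1.15% of all genes. For Srp68 the 2 differences stand side by side with no test, -1.32 in FGOs and -0.29 in embryos.

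Embryo by embryo, no relation of another member to Srp68 passed the threshold. Over the 15 two-cell embryos the Pearson r of log2(TPM + 1) with Srp68 ranged from -0.55 to 0.20 for the 9 other genes, and over all genes the median was 0.10. The highest r was that of Srprb, whose Spearman's rho had the opposite sign, at -0.36. For Srp72 r was 0.17 and Spearman's rho was 0.13, with permutation p-values of 0.55 and 0.64 (adjusted over the 9 relations, 0.63 and 0.82). Without the 2 embryos farthest from the median of Srp68, K36M embryos 4 and 8, r of Srp72 was -0.00034. The value farthest from 0 was that of Srpr, at r = -0.55 and rho = -0.59, with permutation p-values of 0.033 and 0.024 that became 0.29 and 0.21 after adjustment. For Srpr r was -0.50 without the same 2 embryos, -0.54 on deviations from the genotype means and -0.12 with control embryo 4 put back. This relation failed the correction over the 9 relations. As a description, 2.68% of all genes had an r with Srp68 as low or lower. None of the 9 relations passed the threshold, in either measure.

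The 5 genes whose pattern over the 15 embryos was most like that of Srp68, among 17361 others with a mean of at least 1 TPM, were Ibtk, Cacnb1, Tbl1xr1, Gm11545 and Stk17b. Their r was 0.87, 0.86, 0.84, 0.83 and 0.83. Ibtk, the closest, was at 434 ± 68.9 TPM in controls and 364 ± 115 TPM in K36M embryos (SD, n = 7 and 8). Without K36M embryos 4 and 8 the r of these genes dropped to between 0.53 (Tbl1xr1) and 0.67 (Ibtk), so the likeness rests in part on the pair of embryos lowest in Srp68. These values are the top of a list ordered by r and carry no test.

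Between stages, Srp68 was at 51.3 ± 17.9 TPM (SD, n = 7) in control embryos and at 45.6 ± 4.12 TPM (SD, n = 3) in control FGOs, given with no test. Srpr was higher in embryos, at 52.1 to 192 TPM (median 118) against 34.4 to 44.5 TPM, and the groups did not overlap, as for 14.1% of all genes in that direction. Its log2 difference was 1.53, or 2.89-fold on the TPM + 1 scale, with a standard error of 0.40 (adjusted p = 0.0059). It was at 1.24 with an adjusted p of 0.072 when control embryo 4 was put back. Srp54b and Srp54c were lower in embryos, at medians of 2.31 and 1.70 TPM against 13.2 and 9.36 TPM, with log2 differences of -2.14 and -2.09 and standard errors of 0.71 (adjusted p = 0.028 and 0.032). Both calls were lost without any single control FGO library, with adjusted p-values of 0.072 to 0.12 and differences of -2.31 to -2.02 for Srp54b and -2.24 to -1.98 for Srp54c. In all, 1 of the 9 genes was called higher and 2 lower, where 13.4% of all genes were called higher and 13.2% lower. The 2 lower calls are not independent, since these copies share nearly all their sequence. Summed over the 3 Srp54 copies, the mean was 24.4 TPM in control FGOs (20.3 to 27.1) and 16.7 TPM in control embryos (8.95 to 25.8). These ranges overlapped, and the sum was not tested. For Srp54a the log2 difference was 1.66 (adjusted p = 0.21), and Srp72, Srp9, Srp14, Srp19 and Srprb had adjusted p-values of 0.12 to 0.57. FGO libraries were pools and embryo libraries single embryos with more amplification, so stage and kind of library cannot be told apart.

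The gene with the K36M allele, H3f3b, is on the chromosome of Srp68, at chr11:116021961-116026039. The gap between the 2 genes is 219.1 kb and their starts are 248.2 kb apart. H3f3b itself was at 307, 265 and 308 TPM in control FGOs and at 399, 418 and 377 TPM in K36M FGOs. It was higher in every K36M library than in any control, as were 7.46% of the genes tested. The log2 difference was 0.44, with a standard error of 0.09 (unadjusted p = 0.00065, adjusted p = 0.28). The table sums both alleles, and does not show which was expressed.

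Of the 52 annotated genes that start within 500 kb of the start of Srp68, 23 passed the filter of a mean of 1 TPM in FGOs. Of these 13 were higher and 10 lower by sign, with a median log2 difference of 0.04 against 0.01 over all genes tested, and 0 were called, where 0.00726% of all genes were. The lowest difference among them was that of Ten1, at -0.46 (standard error 0.25). Between H3f3b and Srp68 7 genes were tested, with differences from -0.46 to 1.15 and a median of 0.09. The highest was Trim47, at 1.17 ± 1.03 TPM in controls and 3.51 ± 1.48 TPM in K36M FGOs (SD, n = 3; unadjusted p = 0.042, adjusted p = 0.46), and it and H3f3b were the 2 neighbours with an unadjusted p under 0.05, where 10.5% of all genes had one. The 3 nearest genes before the start of Srp68, Exoc7, Ubald2 and Qrich2, had log2 differences of 0.25, -0.06 and 0.63, and of the nearest past it Ten1 and Fbf1 had -0.46 and 0.09. In two-cell embryos 0 of 35 neighbours tested were called, with 0% of all genes called, and their median log2 difference was -0.58, beside -0.26 over all genes. An unadjusted p under 0.05 was found for 2, both lower (6.5% of all genes), namely St6galnac2 (-2.42) and Tsen54 (-1.996), which were named after their values were seen.

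**Figure D5:**
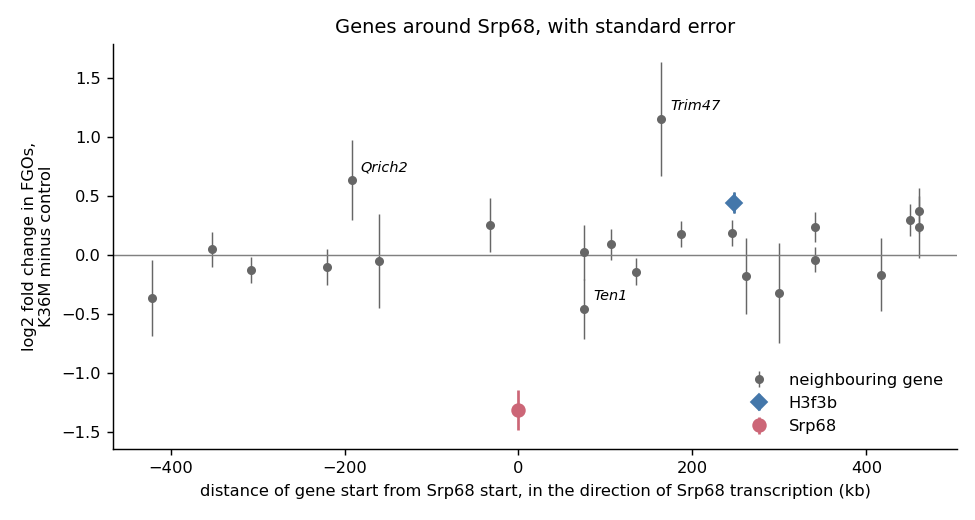
Log2 difference between K36M and control FGOs (y axis) for the 23 neighbouring genes tested, against the distance of their start from that of Srp68 in kb (x axis, positive in the direction Srp68 is transcribed), with standard errors as bars; H3f3b is the blue diamond and Srp68 the red point. Srp68, chosen on these values, lies at -1.32, and the lowest neighbour is Ten1 at -0.46.

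The listed genes of the translocon, of processing and folding in the ER, of the nascent chain complex and of the tail-anchored route showed no called difference between genotypes. Of 68 listed ER genes in the table, 66 were tested in FGOs and 0 were called by limma, while 1 was higher and 6 lower at an unadjusted p under 0.05, against 5.15% and 5.34% of all genes. The median log2 difference was -0.01. Among the 12 translocon genes, Sec61g, a small subunit of the channel, was at 65.2 TPM on average in control and 44.2 TPM in K36M FGOs (log2 difference -0.56, standard error 0.14, adjusted p = 0.31). Of 5 signal peptidase genes, Spcs1 had a difference of -0.62 (standard error 0.22, adjusted p = 0.42). Of 9 tested genes of the EMC, an ER insertase, Emc7 had -0.49 (adjusted p = 0.39), and of the nascent chain complex, which contacts the same ribosome exit as SRP, Btf3 had -0.27 (adjusted p = 0.45). Among 20 tested chaperone and unfolded protein response genes, Hsp90b1 (-0.42) and Canx (-0.20) had negative and Creld2 (0.23) positive differences, with adjusted p-values of 0.31 to 0.46. None of the 12 oligosaccharyltransferase genes or the 6 tested genes of the tail-anchored route, which does not use SRP, had an unadjusted p under 0.05.

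In two-cell embryos 67 of these genes were tested and 0 were called, with 2 higher and 6 lower at an unadjusted p under 0.05, against 1.2% and 6.5% of all genes, and a median log2 difference of -0.39, beside -0.26 over all genes. The 2 higher were the chaperones Hspa5, at 1199 TPM on average in control and 1833 TPM in K36M embryos (log2 difference 0.66, standard error 0.17, adjusted p = 0.38), and Hsp90b1 (0.43, adjusted p = 0.63). Among the lower were the translocon genes Tram2 (-2.71) and Ssr4 (-2.72), Spcs1 (-2.32), the oligosaccharyltransferase subunit Rpn2 (-1.83) and Emc8 (-1.22), with adjusted p-values of 0.54 to 0.60. Spcs1 and Hsp90b1 had an unadjusted p under 0.05 at both stages, negative at both for Spcs1 and negative in FGOs but positive in embryos for Hsp90b1. The interaction term was -1.71 for Spcs1 (unadjusted p = 0.24) and 0.84 for Hsp90b1 (unadjusted p = 0.015), and neither was called (adjusted p = 0.9999 for both). Both genes were picked by their values in the same libraries. For Hsp90b1, with opposite signs at the 2 stages, this choice favours a small unadjusted p.

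Between stages the same fit called 5 of 68 ER genes higher and 12 lower in control embryos, where 13.4% and 13.2% of all genes were called. The higher ones were the translocon gene Sec61a2 (2.29 TPM on average in FGOs and 59.8 TPM in embryos, log2 difference 4.29), Emc1 (2.06), the stress response genes Dnajb9 (4.79) and Eif2ak3 (2.99), and Hspa5 (1.59). The lower ones were Sec61g (-4.57) and Sec61b (-4.16) of the translocon, Spcs3 (-3.61) and Sec11c (-4.36) of the signal peptidase, Tusc3 (-3.17) and Rpn1 (-2.34), Emc2 (-3.97) and Emc10 (-2.72), Naca (-2.24), and Ern1 (-2.51), Pdia6 (-1.86) and Dnajc3 (-2.31). Without any single control FGO library 4 ER genes were called higher and 5 to 7 lower, and over all genes 1559 to 1592 higher and 1265 to 1313 lower, against 2323 and 2292 with all libraries. Called in each of these fits were Sec61a2, Dnajb9, Eif2ak3 and Hspa5 among the higher and Sec61g, Spcs3, Emc2, Ern1 and Pdia6 among the lower. With median-of-ratios scaling 5 ER genes were called higher and 21 lower, beside 1951 and 3106 of all genes.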

How the data were processed

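RNA was sequenced with a SMART-Seq stranded kit in pooled FGOs and in late two-cell embryos taken singly. Per the study's methods the authors trimmed reads with Trim Galore, mapped them to mm10 with HISAT2, removed ribosomal reads and counted genes with featureCounts. They deposited TPM per gene and library, scaled to gene length and to a sum of 1000000. The annotation, strand setting and treatment of reads with several matches are not given in the sources used here. The table holds no counts, so limma was used in place of the study's count test.

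The members and lists were chosen with earlier results of these data known, and Srp68 was chosen for its FGO difference. Log2(TPM + 1) was fitted with limma 3.58.1 (R 4.3.3, eBayes, trend on). Genes entered a fit if their mean over its libraries was 1 TPM or more. P-values were adjusted by Benjamini-Hochberg over all genes of the fit, at a threshold of 0.05. Interaction and stage terms came from a fit over all 21 libraries. Correlations used 100000 permutations. TPM keeps no depth and the read totals of the libraries were not used, so no counting interval was made. The genes named were all 10 members, genes of each list past the threshold or, between genotypes, with the 2 smallest unadjusted p-values under 0.05 in each direction, H3f3b and the 3 nearest neighbours on each side, neighbours with an unadjusted p under 0.05 in FGOs, and the 5 genes most like Srp68. The value of 1 neighbour under this rule is not reported here. Gene positions were from RefSeq on GRCm38.p6 and transcripts from GENCODE M21. Alternatives were another pseudocount, other filters, 2 scalings, no trend, array weights, a replicate block, single FGO libraries left out, control embryo 4 put back and, chosen after seeing the data, K36M embryos 2 and 8 left out.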

Additional observations from a re-analysis of the deposited data

Results flagged for a closer look

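In 20 groups of embryos examined gene by gene for a single distant sample (Dixon's ratio, 7 control or 8 K36M embryos), 6 held one. The nominal rate of the ratio is about 1 in 20 for normally spread values. The share over all genes in these single-embryo libraries was not computed, so the count is a description. Control embryo 7 was low in Srp54b (0.386 TPM) and in Srp54c (0.0899 TPM), which share nearly all their sequence, so these flags are not independent. Control embryo 8 was low in Srprb, at 7.11 TPM, and K36M embryo 8 was low in the same gene, at 2.93 TPM. K36M embryo 2 was low in Srp9, at 27.8 TPM. K36M embryo 3, the embryo with the most Srp68, was low in Srpr, at 52.6 TPM. Control embryo 7 had the fewest genes above 0 of the controls used (12115). K36M embryos 2 and 8 had the fewest of all embryos (10894 and 11178).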

How the results depend on the processing

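The counts of 0 among the members and the listed ER genes, in FGOs and in embryos, were 0 under every alternative run, and so was the count of correlations with Srp68 past the threshold. The difference of Srp68 ranged from -1.46 to -1.21 in FGOs, where the choice of the gene fixes the sign, and from -0.31 to -0.05 in embryos. The stage count of 3 members was 1 with a pseudocount of 0.1, 6 with array weights, 1 with control embryo 4 put back, and 1 (lowest and highest) without single control FGO libraries. The stage count of 17 ER genes, whose alternatives were chosen after seeing the data, was 11 with a pseudocount of 0.1, 26 with median-of-ratios scaling, 42 with array weights (4883 of all genes higher and 4847 lower) and 9 to 11 without single control FGO libraries. Over all genes the fit of FGOs called 1 gene, and 300 in all without K36M replicate 1 (191 higher, 109 lower). The causes were not tested. Deviations of same-numbered libraries from their group means had an r of 0.015 to 0.10 in FGOs and -0.10 to 0.097 in embryos. The labels do not say what the numbers share, and these values do not settle it. The main fits used the numbers as names of libraries only. With the replicate number as a block the counts were 0 in FGOs, 0 in embryos and 2 between stages, where Srp54b and Srp54c lost their calls (differences of -1.85 and -1.95, adjusted p = 0.11 and 0.099) and Srp14 gained one (-1.19, adjusted p = 0.018).

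No value that changed sign had been called. In FGOs these were Srp54b (-0.023 to 0.28 over fits without single libraries, negative without control replicate 1 and, at -0.0030, without K36M replicate 3), Srp54c (-0.0097 to 0.27, with -0.0097 and -0.0091 in the same cases), Srp9 (-0.0053 to 0.18, the lowest without control replicate 3) and Srprb (-0.0082 with array weights, and -0.082 to 0.16 over the single libraries, the lowest without K36M replicate 1). In embryos they were Srp9 (-0.080 with array weights), Srp54c (-0.14 with control embryo 4), and, without K36M embryos 2 and 8, Srp54a (0.23), Srp54b (-0.22) and Srp54c (-0.36). For Srprb they were 0.38 (quantile normalization), 0.10 (median-of-ratios scaling), 0.14 (array weights), 0.29 (control embryo 4) and 0.30 (without K36M embryos 2 and 8). Between stages Srp68 was at -0.22 with median-of-ratios scaling and -0.080 with control embryo 4. Among correlations with Srp68, r of Srp19 was 0.037 on deviations from genotype means and 0.011 with control embryo 4, and r of Srprb was -0.16 after quantile normalization. Without the 2 embryos farthest from the median, r was -0.00034 for Srp72, -0.18 for Srp54a, 0.26 for Srp54b, 0.087 for Srp54c, 0.14 for Srp19 and -0.40 for Srprb.

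In embryos intervals as wide as -2.40 to 0.95 (Srp54a) leave room for large differences of the partner genes, and in FGOs the widest was -0.03 to 1.83 (Srp54a), so the counts of 0 do not show that these genes were unaffected.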
